A study of Homo sapiens with 16 samples.

Results

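The 10 genes described here encode proteins stored in the granules of myeloid cells: MPO, ELANE, PRTN3, AZU1, CTSG, LYZ, RNASE2, RNASE3, SRGN and CST7. They were chosen by symbol, each matched to 1 Ensembl ID among the 62700 genes in the deposited table of normalized counts. All 10 averaged 10 or more normalized counts across the 16 libraries and so were among the 14643 genes tested. RNA was sequenced from OCI-AML3, an established human acute myeloid leukemia cell line, so every value comes from 1 line.

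The 5 groups were Untreated cells (n = 4), cells given ATRA (n = 3), cells given AM80 (n = 3), and cells given either retinoid together with both inhibitors, named ATRA-LSDi-MB3 (n = 3) and AM80-LSDi-MB3 (n = 3). ATRA, or all-trans retinoic acid, activates all retinoic acid receptors, whereas Am80 (tamibarotene) is selective for the receptor RARA. Each retinoid was used at 0.1 µM for 3 h. The inhibitors were GSK-LSD1 at 0.1 µM, which blocks the histone demethylase LSD1, and MB3 at 100 µM, which blocks the histone acetyltransferase GCN5. No group received the inhibitors without a retinoid, and none received a single inhibitor. Adding both to a retinoid can be compared with that retinoid alone, but the part of each inhibitor cannot be told apart from that of the other. Nor can an effect of the inhibitors on their own be told apart from one that needs the retinoid. The replicates were not stated to be separate cultures, so the tests measure only the spread between these libraries, which may be technical.

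Azurophil granules are built at the promyelocyte stage and hold myeloperoxidase together with neutrophil serine proteases, which are packed on the proteoglycan serglycin. Transcription of these genes is known to rise early in granulocyte development and to fall as the cells mature, under factors of the C/EBP, PU.1 and MYB families. Lysozyme and the ribonuclease A family members of eosinophil granules follow other schedules, and lysozyme is also made by monocytes and macrophages.

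The libraries held 11963898 to 33789718 reads in genes, recovered as whole reads from the normalized values. The 10 genes together took 0.597 to 0.774% of the reads in Untreated libraries, 0.565 to 0.607% in ATRA, 0.629 to 0.685% in AM80, 0.690 to 0.742% in ATRA-LSDi-MB3 and 0.719 to 0.794% in AM80-LSDi-MB3. A pair of libraries stood apart among these genes. Untreated replicate 4 was the highest of its group for 10 of the 10 genes, and AM80 replicate 2 was the lowest of its group for ELANE, PRTN3, AZU1, CTSG and CST7. Of the calls against Untreated and against the matching retinoid, that of CTSG in AM80 was the 1 lost without either of them. Myeloid identity was checked with 10 marker genes, of which 9 had a mean of at least 10 normalized counts and CSF2RA had 0 reads in all libraries. The summed level of that list was 17040 to 20854 in Untreated libraries, 18711 to 20198 in ATRA, 17071 to 22025 in AM80, 14440 to 16054 in ATRA-LSDi-MB3 and 16081 to 16903 in AM80-LSDi-MB3. Of 7 eosinophil and mast cell markers 1, MS4A2, reached a mean of 10, CLC and CPA3 had 0 reads throughout, and the list summed to 33.2 to 65.2 over the 5 groups. The T cell list summed to at most 5.54 normalized counts in any library, with CD2 and CD3D at 0, and the erythroid list to at most 2.79, with HBA1 and HBA2 at 0. The megakaryocyte list summed to 20.6 to 39.1 over the 5 groups, with PF4 at 0. None of the 4 epithelial genes reached a mean of 10. They summed to 2.77 to 6.97 in Untreated libraries, 7.20 to 8.63 in ATRA and 7.43 to 8.80 in AM80. The sums were 6.52 to 10.7 in ATRA-LSDi-MB3 and 8.77 to 13.7 in AM80-LSDi-MB3. Every library of ATRA, AM80 and AM80-LSDi-MB3 thus lay above every Untreated library. These sums are low, and the closest values were 6.97 in Untreated and 7.20 in ATRA. Of all tested genes, 15.7%, 15.8% and 27.8% lay wholly above Untreated in these 3 groups. The part of these markers in the results was not tested.

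Untreated OCI-AML3 cells expressed the granule genes over a wide range of levels, from among the most abundant transcripts to barely detected. On the TPM scale (reads per base of GENCODE 29 exon, scaled to the same total in each library, over 58207 genes), CTSG stood at 7813 ± 1025 TPM (SD, n = 4) and ranked 10 of all genes. SRGN followed at 4930 ± 250 TPM and rank 16, RNASE2 at 1241 ± 128 TPM and LYZ at 942 ± 16.3 TPM. ELANE was intermediate at 393 ± 60.9 TPM. The next 3 genes lay close together, with PRTN3 at 160 ± 13.6, RNASE3 at 143 ± 13.7 and AZU1 at 142 ± 6.82 TPM and overlapping ranges. CST7 stood at 71.8 ± 7.31 TPM. MPO, the enzyme that defines azurophil granules, was at 2.18 ± 0.149 TPM and rank 12437.

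In the 4 comparisons with Untreated cells, most of the granule genes called were lower after treatment, and SRGN alone was called higher. ATRA left 4 of the 10 genes called lower (CTSG, LYZ, RNASE2 and RNASE3) and 0 higher, and AM80 left 3 lower (CTSG, LYZ and RNASE3) and 1 higher. ATRA-LSDi-MB3 lowered 6 (MPO, ELANE, PRTN3, AZU1, CTSG and RNASE3) and raised 1, and AM80-LSDi-MB3 lowered 3 (MPO, AZU1 and RNASE3) and raised 1. A call was a Benjamini-Hochberg adjusted p under 0.05 in limma across all tested genes, with fold changes on the log2(normalized count + 1) scale, which understates the change of low genes. Among all 14643 genes, 12.1% were called lower and 12.5% higher with ATRA, 13.4% and 15.4% with AM80, 30% and 30.2% with ATRA-LSDi-MB3, and 26.6% and 28% with AM80-LSDi-MB3. The share of granule genes called lower was above that of all genes with ATRA and ATRA-LSDi-MB3 and near it with AM80-LSDi-MB3. With AM80 the 3 genes called lower included CTSG, whose call was lost without either library that stood apart, and 1 gene was called lower without the filter on low counts. The median log2 fold change of the 10 genes was -0.30, -0.27, -0.40 and -0.15 in the same order, against -0.02, -0.01, -0.00303 and -0.00292 over all genes. Untreated replicate 4, the highest of its group in all 10 genes, pulls these medians of the 10 genes down. Without it each of the 10 genes moved upward in each comparison. In AM80-LSDi-MB3 the values on either side of the median, RNASE2 and CTSG, went from -0.17 and -0.12 to -0.07 and 0.01. With calls limited to changes over 1.5-fold, 1, 0, 4 and 1 of the 10 genes remained, beside 9.45%, 10.2%, 29.1% and 26% of all genes. These 4 comparisons share the 4 Untreated libraries and are not independent of each other. In bulk RNA, fewer cells of a type and less RNA per cell cannot be told apart.

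**Figure D1:**
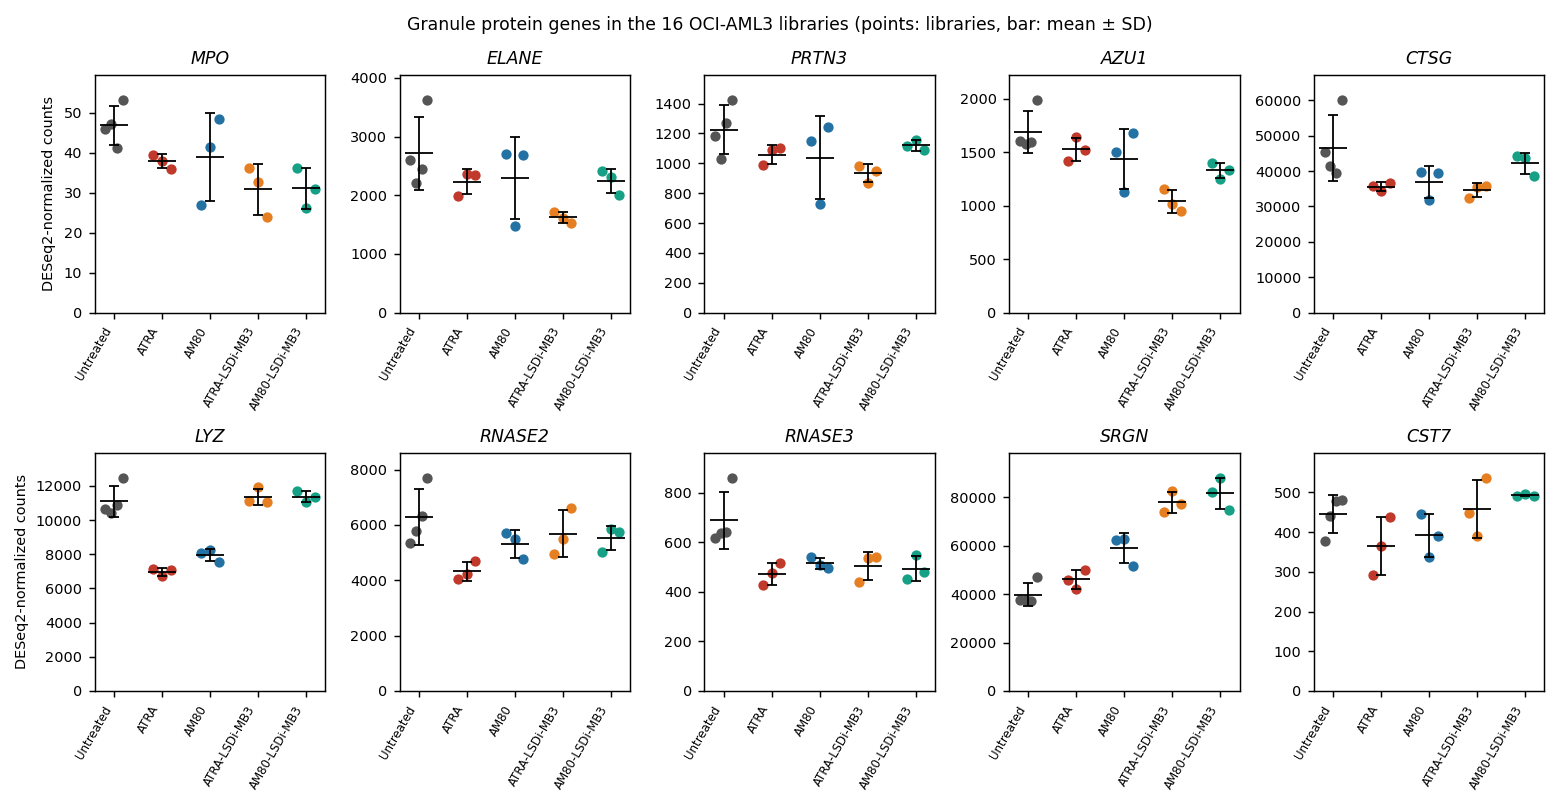
DESeq2-normalized counts (vertical axis, from 0, own scale for each gene) of the 10 granule protein genes in the 5 groups (horizontal axis); points are libraries, and the bar with whiskers is the mean ± SD (n = 4 for Untreated, n = 3 elsewhere). SRGN climbs from 39852 in Untreated to 81629 in AM80-LSDi-MB3, LYZ dips to 6978 and 7950.3 with the retinoids alone, and the highest Untreated point of every gene is replicate 4.

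Against ATRA alone, ATRA-LSDi-MB3 raised LYZ, RNASE2 and SRGN and lowered ELANE and AZU1, while 24.9% of all genes were called higher and 24.4% lower. Against AM80 alone, AM80-LSDi-MB3 raised LYZ and SRGN and lowered 0 of the 10 genes, beside 19.9% and 19.5% of all genes. The 3 and 2 genes raised and the 2 lowered over ATRA were shares near those of all genes. Changes over 1.5-fold were called in 2 and 0 of the 10 genes and in 19.5% and 15.7% of all genes. In ATRA-LSDi-MB3 3 genes lay wholly above ATRA (LYZ, RNASE2 and SRGN) and 3 wholly below it (ELANE, PRTN3 and AZU1), beside 31.5% and 31.6% of all genes. The median log2 fold change of the 10 genes was 0.03 and 0.10, compared with -0.02 and -0.01 over all genes. When reads were scaled to each library's total instead of by the deposited size factors, the median of all genes moved to -0.15 and -0.19 in the 2 combination groups against Untreated, and to -0.16 and -0.13 against the matching retinoid. Under that scaling 9 of the 10 genes were called in AM80-LSDi-MB3 against Untreated, 8 of them lower, compared with 4 under the deposited scaling, and 59.2% of all genes were called.

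**Figure D2:**
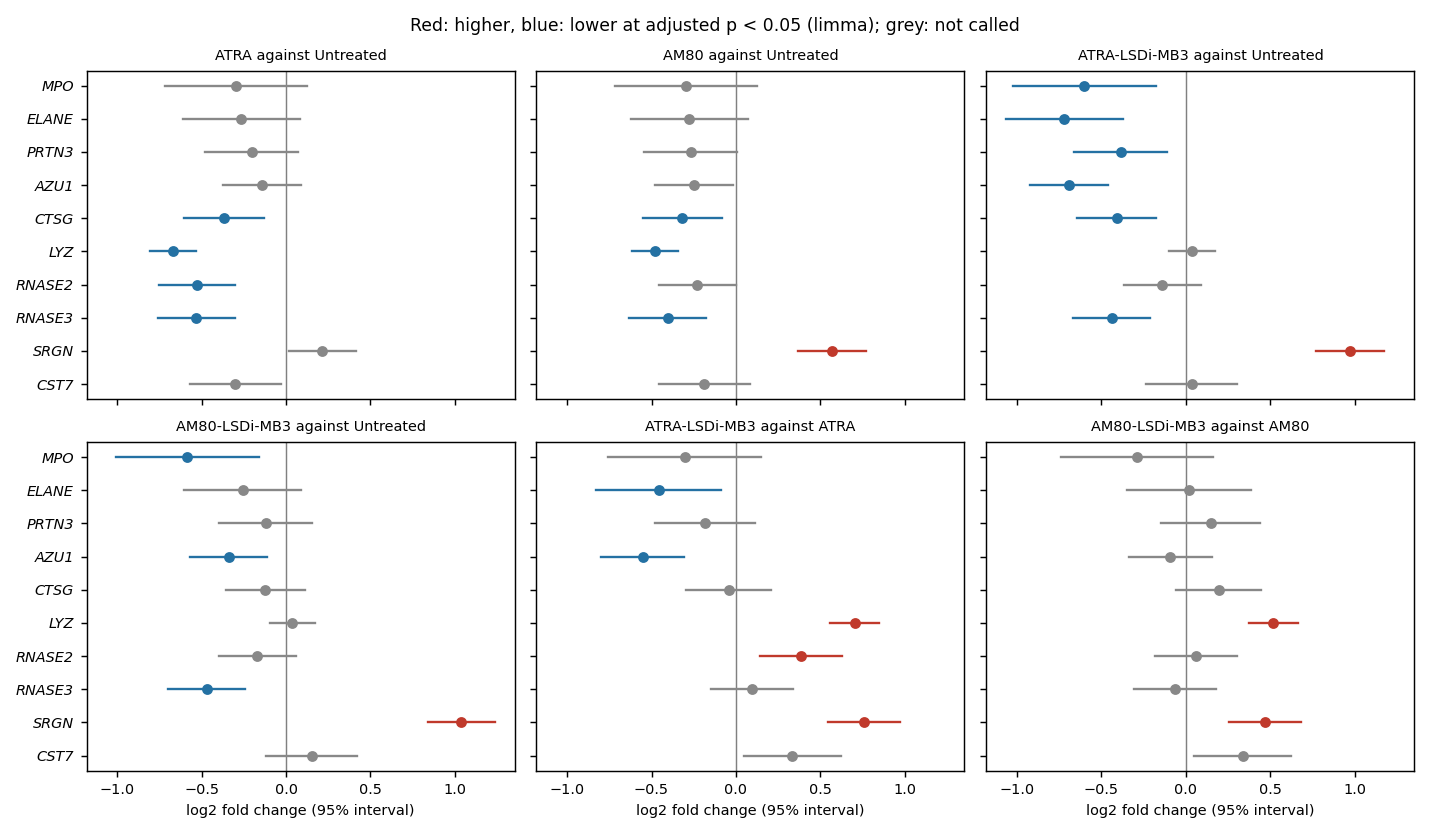
Log2 fold change (horizontal axis, on log2(normalized count + 1)) of the 10 granule protein genes (vertical axis) in the 6 comparisons of treatment; points are limma estimates, lines their 95% intervals, red higher and blue lower at adjusted p under 0.05, grey not called. SRGN reached 0.97 and 1.04 in the combinations against Untreated, where the serine proteases lay between -0.72 and -0.12.

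The serine protease family was represented by 4 genes. AZU1, PRTN3 and ELANE sit in a row on the plus strand of chromosome 19 in GENCODE 29 (GRCh38), at chr19:825097-832018, chr19:840960-848175 and chr19:851014-856247, with 8941 bases between AZU1 and PRTN3 and 2838 bases between PRTN3 and ELANE. CTSG lies apart at chr14:24573522-24576260 on the minus strand of chromosome 14. No other annotated gene overlaps an exon of these 4. All 4 were lower in ATRA-LSDi-MB3 than in Untreated cells.

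ELANE encodes neutrophil elastase, a protease that degrades microbial proteins and extracellular matrix. Its normalized counts were 2599, 2215, 2442 and 3622 in Untreated replicates 1 to 4, 1988, 2366 and 2341 in ATRA and 2701, 1484 and 2679 in AM80. In the combinations they were 1721, 1612 and 1536 with ATRA-LSDi-MB3 and 2414, 2304 and 2009.7 with AM80-LSDi-MB3. All 3 ATRA-LSDi-MB3 libraries lay below every Untreated and ATRA library, whereas AM80 replicate 2 held the lowest value of all 16 and the other 2 AM80 libraries lay within the Untreated range. ELANE fell to 0.607-fold of Untreated with ATRA-LSDi-MB3 (log2 fold change -0.72 ± 0.17 (SE), limma adjusted p = 0.000872). Without Untreated replicate 4 that value was -0.57 and the call held. ATRA-LSDi-MB3 was also below ATRA (-0.46 ± 0.18 (SE), limma adjusted p = 0.0383), a call lost when any of 5 single libraries of those groups was left out (ATRA replicates 2 and 3 and each ATRA-LSDi-MB3 replicate) and in DESeq2. The log2 values in ATRA (-0.26), AM80 (-0.28) and AM80-LSDi-MB3 (-0.26) did not pass the test against Untreated. Without Untreated replicate 4 they were -0.12, -0.13 and -0.11, and without AM80 replicate 2 the AM80 value was 0.01.

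AZU1 encodes azurocidin, a protease homolog without catalytic activity that kills bacteria and attracts monocytes. Untreated replicates 1 to 4 held 1605, 1573, 1593 and 1988 normalized counts, ATRA 1417, 1638 and 1522, and AM80 1505, 1128 and 1676. With inhibitors the values were 1161, 1019 and 949 in ATRA-LSDi-MB3 and 1399, 1254 and 1336 in AM80-LSDi-MB3. Both combination groups lay wholly below Untreated cells, and ATRA-LSDi-MB3 lay wholly below ATRA alone and below AM80-LSDi-MB3. The log2 fold change was -0.69 ± 0.11 (SE), limma adjusted p = 1.87e-05, with ATRA-LSDi-MB3 and -0.34 ± 0.11 (SE), limma adjusted p = 0.0130, with AM80-LSDi-MB3. The second call was lost without AM80-LSDi-MB3 replicate 2 (-0.30, adjusted p = 0.0623). Adding the inhibitors to ATRA lowered AZU1 (log2 fold change -0.55 ± 0.12 (SE), limma adjusted p = 0.000698). Against AM80 the difference was -0.09 (adjusted p = 0.562), and -0.26, adjusted p = 0.0494 without AM80 replicate 2.

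PRTN3 encodes proteinase 3, the target of autoantibodies in granulomatous vasculitis. It ranged over 1026 to 1424 normalized counts in Untreated cells, 989 to 1101 in ATRA, 724 to 1245 in AM80, 865 to 982 in ATRA-LSDi-MB3 and 1089 to 1157 in AM80-LSDi-MB3. Only ATRA-LSDi-MB3 lay wholly below Untreated cells, and AM80 replicate 2 held the lowest value of all 16. The ATRA-LSDi-MB3 group was lower (-0.39 ± 0.13 (SE), limma adjusted p = 0.0160), and this was not called without its replicate 2 (-0.33, adjusted p = 0.0751).

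CTSG encodes cathepsin G, a chymotrypsin-like protease of azurophil granules, and was the most abundant of the 10 genes per length. Untreated replicates 1 to 4 held 45252, 41289, 39389 and 60054 normalized counts, and ATRA 35735, 34239.8 and 36738. AM80 held 39844, 31751 and 39374, ATRA-LSDi-MB3 32344, 35614 and 35750.4 and AM80-LSDi-MB3 44332, 43558 and 38736. The ATRA and ATRA-LSDi-MB3 libraries were all below the lowest Untreated library, whereas AM80 and AM80-LSDi-MB3 each overlapped with Untreated cells. CTSG fell with ATRA (-0.37 ± 0.11 (SE), limma adjusted p = 0.0205), AM80 (-0.32 ± 0.11 (SE), limma adjusted p = 0.0390) and ATRA-LSDi-MB3 (-0.41 ± 0.11 (SE), limma adjusted p = 0.00381). Without Untreated replicate 4 the ATRA value was -0.24 and still called, and without ATRA replicate 1 or 2, or with only the groups compared in the fit, the call was lost. The AM80 call was lost without Untreated replicate 1, without Untreated replicate 4 (-0.19, adjusted p = 0.0800) and without AM80 replicate 2 (-0.21, adjusted p = 0.227). AM80-LSDi-MB3 stood at -0.12 against Untreated (adjusted p = 0.379) and at 0.01 without Untreated replicate 4. Its difference was called under quantile normalization (-0.37, adjusted p = 0.00364) and on scaling to total reads (-0.31, adjusted p = 0.0136).

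The RefSeq promoters of CTSG, AZU1 and PRTN3 (GRCh38.p14) are shown because they hold short motifs of the factor families known to drive protease genes in promyelocytes. Each is printed 5′ to 3′ on the gene's strand from 150 bases before the RefSeq start to the first base that GENCODE 29 places in an exon, and covers chr14:24576261-24576400 (minus strand), chr19:827687-827835 and chr19:840849-840959 (both plus strand). Capitals mark GAGGAA (PU.1 type), CAACTG (MYB) or TTGCNNAA (C/EBP), matched on either strand, with no overlap between matches.
CTSG: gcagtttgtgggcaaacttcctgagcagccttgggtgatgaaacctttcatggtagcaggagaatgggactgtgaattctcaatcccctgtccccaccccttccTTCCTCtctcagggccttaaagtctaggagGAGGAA
AZU1: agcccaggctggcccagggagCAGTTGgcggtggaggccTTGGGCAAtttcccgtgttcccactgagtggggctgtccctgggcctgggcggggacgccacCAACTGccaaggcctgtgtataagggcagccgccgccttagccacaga
PRTN3: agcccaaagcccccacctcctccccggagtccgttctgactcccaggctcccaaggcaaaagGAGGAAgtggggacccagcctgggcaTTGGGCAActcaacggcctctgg
CTSG held GAGGAA at -46 (on the opposite strand) and at -16 from the RefSeq start, and CAACTG at -1, past the printed stretch. AZU1 held TTGCNNAA at -111 and CAACTG at -129, both on the opposite strand, and CAACTG at -49. PRTN3 held GAGGAA at -88 with TTGCNNAA at -62 on the opposite strand. The RefSeq start of AZU1 lies inside the GENCODE gene, so the printed stretch is intronic there. Over 35116 promoters of 300 bases, GAGGAA occurred in 27.85%, CAACTG in 11.4% and TTGCNNAA in 10.46%. AGGTCA, the repeat unit of retinoic acid response elements and found in 13.83% of all promoters, matched none of the 5 granule gene promoters searched (RNASE2 and RNASE3 with these 3), nor did TATAAA, found in 11.53%. A match describes the letters only.

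MPO encodes myeloperoxidase, the heme enzyme that makes hypochlorous acid, at chr17:58269856-58280935 on the minus strand. Untreated replicates 1 to 4 had 46.0, 47.1, 41.1 and 53.2 normalized counts, ATRA 39.5, 38.0 and 36.0 and AM80 26.9, 41.4 and 48.5. The combinations had 36.1, 32.6 and 23.9 in ATRA-LSDi-MB3 and 36.2, 26.1 and 30.9 in AM80-LSDi-MB3. These values rest on 19 to 80 reads per library. Every ATRA, ATRA-LSDi-MB3 and AM80-LSDi-MB3 library lay below every Untreated library, and AM80 overlapped with Untreated cells. MPO fell with ATRA-LSDi-MB3 (-0.60 ± 0.20 (SE), limma adjusted p = 0.0147) and with AM80-LSDi-MB3 (-0.58 ± 0.20 (SE), limma adjusted p = 0.0192), while ATRA (-0.30) and AM80 (-0.30) did not pass the test. The AM80 value was -0.06 without AM80 replicate 1. Both calls were lost without the filter on low counts and in DESeq2 (adjusted p = 0.0591 and 0.0799), the first also without ATRA-LSDi-MB3 replicate 3 (-0.43, adjusted p = 0.103) and the second without AM80-LSDi-MB3 replicate 2 (-0.47, adjusted p = 0.0966).

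LYZ encodes lysozyme, which cleaves bacterial peptidoglycan, and lies at chr12:69348341-69354234 on the plus strand. It fell with either retinoid alone and stood near the Untreated level in both combinations. Untreated replicates 1 to 4 held 10658, 10420.0, 10885 and 12446 normalized counts. ATRA lowered them to 7147, 6703 and 7084, and AM80 to 8065, 8234 and 7552. ATRA-LSDi-MB3 held 11116, 11913 and 11078 and AM80-LSDi-MB3 11712, 11047 and 11362. The retinoid groups lay wholly below the other 3 groups, the ATRA libraries all lay below the AM80 libraries, and Untreated and combination libraries overlapped. LYZ fell to 0.630-fold of Untreated with ATRA (-0.67 ± 0.07 (SE), limma adjusted p = 7.36e-08) and to 0.717-fold with AM80 (-0.48 ± 0.07 (SE), limma adjusted p = 7.36e-06). Adding the inhibitors raised it by 0.70 ± 0.07 (SE), limma adjusted p = 1.21e-07, over ATRA and by 0.52 ± 0.07 (SE), limma adjusted p = 6.42e-06, over AM80. Against Untreated cells the combinations differed by 0.04 (95% interval -0.10 to 0.17) and 0.04 (-0.10 to 0.17). Scaled to total reads, the AM80-LSDi-MB3 value was -0.15, adjusted p = 0.0350, beside a median of -0.19 over all genes, and the rises over the retinoids were 0.56 and 0.39, both still called. Exons of LYZ overlap over 599 bases with AC020656.1 on the other strand, which had 0 reads in every library, and 7.55% of the 51-base windows of LYZ transcripts also occur in the same sense in other genes, so part of its reads could be split or lost.

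RNASE2 and RNASE3 encode the eosinophil-derived neurotoxin and the eosinophil cationic protein, ribonucleases with antiviral and antibacterial activity, and arose by gene duplication. RNASE3 (chr14:20891399-20892348) and RNASE2 (chr14:20955452-20956436) lie on the plus strand of chromosome 14 with 63103 bases between them. Their upstream sequences are shown because the copies resemble each other there too: over the 250 bases before each RefSeq start, the best local alignment had 233 columns with 82.83% identical bases and 34 gap columns. The stretches cover chr14:20891235-20891384 and chr14:20955337-20955451 (GRCh38.p14, RefSeq starts), and capitals mark TTGCNNAA (C/EBP), at -94 in RNASE3 and -145 in RNASE2.
RNASE3: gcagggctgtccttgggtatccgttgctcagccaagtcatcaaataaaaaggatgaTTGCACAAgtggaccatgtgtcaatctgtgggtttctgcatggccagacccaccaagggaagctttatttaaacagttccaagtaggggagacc
RNASE2: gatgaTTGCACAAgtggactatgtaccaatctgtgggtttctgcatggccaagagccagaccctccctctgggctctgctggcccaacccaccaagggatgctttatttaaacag
With AZU1 and PRTN3, 4 of the 5 granule gene promoters searched held TTGCNNAA, found in 10.46% of all promoters. The RNASE2 and RNASE3 matches lie in the aligned stretch of duplicated genes and are not independent of each other.

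RNASE2 fell with ATRA and RNASE3 fell in all 4 treated groups. RNASE2 held 5338, 5779, 6306 and 7681 normalized counts in Untreated replicates 1 to 4, 4053, 4223 and 4695 in ATRA and 5721, 5484 and 4759.6 in AM80. In ATRA-LSDi-MB3 it held 4943, 5507 and 6594, and in AM80-LSDi-MB3 5035, 5848 and 5730.4. ATRA alone was the group wholly below Untreated cells, and the other 4 groups overlapped. The log2 fold change with ATRA was -0.53 ± 0.11 (SE), limma adjusted p = 0.000988, and the value with AM80 was -0.23 (adjusted p = 0.126). Without Untreated replicate 4 the AM80 value was -0.13, whereas under quantile normalization (-0.30, adjusted p = 0.0352) and total-read scaling (-0.29, adjusted p = 0.0331) it was called. Adding the inhibitors to ATRA raised RNASE2 by 0.39 ± 0.12 (SE), limma adjusted p = 0.00970, a call lost without ATRA-LSDi-MB3 replicate 3 (0.27, adjusted p = 0.0775) and on scaling to total reads (0.24, adjusted p = 0.0676). Adding them to AM80 gave 0.06 (95% interval -0.18 to 0.30).

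RNASE3 held 616, 636, 643 and 859 normalized counts in Untreated replicates 1 to 4, 427, 475 and 516 in ATRA and 541, 507 and 497 in AM80. The combinations held 440.3, 536 and 539.9 in ATRA-LSDi-MB3 and 451, 549.8 and 481 in AM80-LSDi-MB3. All 12 treated libraries lay below all 4 Untreated libraries, and the treated groups overlapped with each other. The log2 fold changes were -0.53 ± 0.11 (SE), limma adjusted p = 0.000931, with ATRA, -0.41 ± 0.11 (SE), limma adjusted p = 0.00779, with AM80, -0.44 ± 0.11 (SE), limma adjusted p = 0.00177, with ATRA-LSDi-MB3, and -0.47 ± 0.11 (SE), limma adjusted p = 0.00111, with AM80-LSDi-MB3. Groups wholly below Untreated were found for 17%, 14.9%, 29.2% and 26% of all genes in these comparisons. Without Untreated replicate 4 the values were -0.42, -0.29, -0.33 and -0.36, all called. The inhibitors moved RNASE3 by 0.09 over ATRA and -0.06 over AM80, neither called. RNASE2 reads per RNASE3 read were 8.66 to 9.81 in Untreated libraries and 8.89 to 9.49 in ATRA, then 9.58 to 10.8 in AM80, 10.3 to 12.2 in ATRA-LSDi-MB3 and 10.6 to 11.9 in AM80-LSDi-MB3. The combination ratios all lay above the Untreated ratios. Of the 51-base windows of their transcripts, 19 are identical between both genes, so a small share of their reads cannot be assigned.

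SRGN encodes serglycin, the proteoglycan core on which granule proteases are packed, at chr10:69088106-69104811 on the plus strand. It was the granule gene that rose, with AM80 and with both combinations. Untreated replicates 1 to 4 held 37749.9, 37485, 37217 and 46955 normalized counts. ATRA held 46005, 42303 and 50138, and AM80 62518, 62798 and 51689. ATRA-LSDi-MB3 held 73972, 82687 and 77251 and AM80-LSDi-MB3 82245, 87827 and 74814. Both combinations lay above all other libraries (with ATRA-LSDi-MB3, 29.9% of all genes lay wholly above Untreated), AM80 lay wholly above ATRA and Untreated (as 15.8% of all genes did above Untreated), and ATRA overlapped with Untreated through Untreated replicate 4. SRGN was 1.96-fold higher than Untreated with ATRA-LSDi-MB3 (0.97 ± 0.10 (SE), limma adjusted p = 3.54e-08) and 2.05-fold higher with AM80-LSDi-MB3 (1.04 ± 0.10 (SE), limma adjusted p = 1.39e-08). AM80 alone raised it 1.48-fold (0.57 ± 0.10 (SE), limma adjusted p = 0.000109). With ATRA alone the value was 0.22 ± 0.10 (SE) with limma adjusted p = 0.112, and 0.30, adjusted p = 0.00855 without Untreated replicate 4. The inhibitors raised SRGN by 0.76 ± 0.10 (SE), limma adjusted p = 5.79e-06, over ATRA and by 0.47 ± 0.10 (SE), limma adjusted p = 0.00105, over AM80. Under quantile normalization these rises were 0.27 and 0.10, the second no longer called (adjusted p = 0.292).

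CST7 encodes cystatin F, an inhibitor of lysosomal cysteine proteases such as cathepsin C, which activates the serine proteases. It lies at chr20:24949230-24959928 on the plus strand and passed the test in 0 of the 6 comparisons of treatment. It ranged over 378 to 482 normalized counts in Untreated cells, 291 to 438 in ATRA, 338 to 447 in AM80, 390.2 to 535 in ATRA-LSDi-MB3 and 490.0 to 495 in AM80-LSDi-MB3. The AM80-LSDi-MB3 libraries lay above every Untreated and AM80 library, as did 27.8% and 25.3% of all genes in those comparisons. Against the matching retinoid CST7 stood at 0.33 ± 0.14 (SE), limma adjusted p = 0.0507, in ATRA-LSDi-MB3 and at 0.34 ± 0.14 (SE), limma adjusted p = 0.0571, in AM80-LSDi-MB3. Those values passed the threshold in 10 and 8 of 28 alternative settings. Against Untreated, ATRA stood at -0.30, which was called without Untreated replicate 1 (-0.38, adjusted p = 0.0497) or without ATRA replicate 3 (-0.44, adjusted p = 0.0245).

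ATRA and Am80 were given at the same dose and time and were compared over the 10 genes, with p-values adjusted over all 14643 tested. Of the 10 genes, 0 differed between AM80 and ATRA alone in limma, and 3 had an unadjusted p under 0.05 (LYZ, RNASE2 and SRGN), while 0.239% of all genes were called and 13.9% had such a p. LYZ was higher in AM80 by 0.19 (95% interval 0.04 to 0.33), RNASE2 by 0.30 (0.05 to 0.54) and SRGN by 0.35 (0.14 to 0.57) on the log2 scale. In these 3 genes every AM80 library lay above every ATRA library, which was so for 10.8% of all genes. In edgeR 0 of the 10 were called. SRGN was called in DESeq2 (adjusted p = 0.0247), where 343 genes were called, 0.902% of the 38023 with any read. It was also called in limma without Untreated replicate 4 (adjusted p = 0.0243), where 3.13% of the 14643 genes were. For the other 7 genes the estimates ran from -0.10 to 0.13 and each 95% interval included 0. Without AM80 replicate 2 ELANE stood at 0.27, PRTN3 at 0.18, CST7 at 0.21, CTSG at 0.16 and AZU1 at 0.06, compared with -0.01, -0.06, 0.11, 0.05 and -0.10 with it. With all libraries, the widest 95% interval of these 7 genes was that of MPO, -0.45 to 0.45.

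With the inhibitors, AM80-LSDi-MB3 and ATRA-LSDi-MB3 differed in 0 of the 10 genes, with 0% of all genes called and 3 of the 10 at an unadjusted p under 0.05 (ELANE, AZU1 and CTSG), as had 18.1% of all genes. In edgeR and DESeq2 0 of the 10 were called too. The 4 serine protease family genes were each higher in every AM80-LSDi-MB3 library than in every ATRA-LSDi-MB3 library, as were 16.4% of all genes. The differences were 0.46 for ELANE (95% interval 0.09 to 0.83), 0.35 for AZU1 (0.11 to 0.60), 0.29 for CTSG (0.04 to 0.54) and 0.27 for PRTN3 (-0.03 to 0.56). When only the 6 libraries of these groups entered the fit, all 4 were called, with adjusted p = 0.000235, 0.00174, 0.0057 and 0.00861 in that order, and 13.5% of all genes were called. The SD of ELANE was 93.3 and 209 normalized counts in those groups, compared with 622 in Untreated and 697 in AM80. The spread of all groups enters the fit over all 16 libraries, and its part in the calls of these genes was not tested. Without Untreated replicate 4, AZU1 and CTSG were called (adjusted p = 0.0495 and 0.046), beside 4.41% of all genes. LYZ, by contrast, differed by 0.00 (-0.14 to 0.15), and SRGN by 0.06 (-0.15 to 0.28). The inhibitors' effect was tested for a difference between the retinoids as an interaction, which was called for 0 of the 10 genes and 0% of all genes, with 15.1% of all genes and 1 of the 10, AZU1, at an unadjusted p under 0.05 (0.46, 95% interval 0.11 to 0.81, limma adjusted p = 0.234). Without AM80 replicate 2 the AZU1 value was 0.29 (adjusted p = 0.588). In edgeR and DESeq2 the interaction was called for 0 of the 10.

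**Figure D3:**
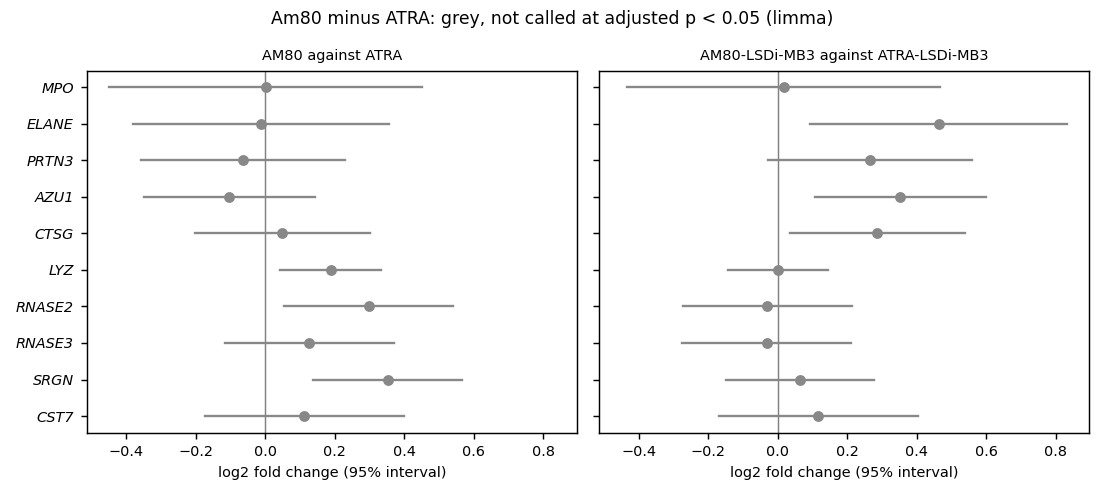
Log2 difference of AM80 minus ATRA (horizontal axis, on log2(normalized count + 1)) for the 10 granule protein genes (vertical axis), alone (left) and with inhibitors (right); points are limma estimates from all 16 libraries, lines their 95% intervals, and none was called. The largest differences were SRGN at 0.35 alone and ELANE at 0.46 with inhibitors.

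Within groups the 10 genes also varied together in subsets. Over the 16 libraries, after subtracting each group's mean, log2 ELANE had a Pearson correlation of 0.92 with PRTN3, 0.90 with AZU1 and 0.82 with CTSG. RNASE2 and RNASE3 had a correlation of 0.87, and LYZ and SRGN one of 0.79. MPO ranged from -0.48 with RNASE2 to 0.35 with AZU1. These points share library, depth and size factor, and the values are a description. Untreated replicate 4 deviated from its group mean by 0.44 in ELANE and AM80 replicate 2 by -0.57. Without these 2 libraries, an alternative chosen after seeing the data, the correlations of ELANE over 14 libraries were 0.60 with PRTN3, 0.54 with AZU1 and 0.31 with CTSG. That of RNASE2 with RNASE3 was then 0.80 and that of LYZ with SRGN 0.56, while MPO stood at -0.87 with RNASE2 and 0.71 with AZU1.

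**Figure D4:**
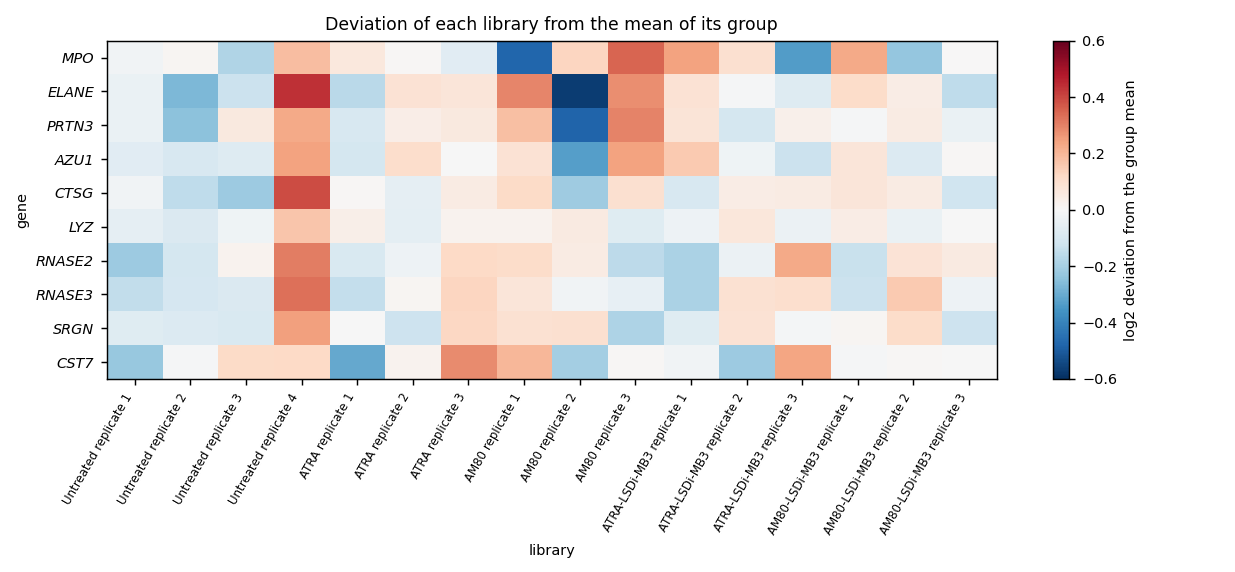
Log2 deviation of each library (horizontal axis) from the mean of its group for the 10 granule protein genes (vertical axis); red is above and blue below the mean, limited at ±0.6. Untreated replicate 4 is above its group mean in all 10 genes, and AM80 replicate 2 deviates by -0.57 in ELANE, with PRTN3, AZU1 and CTSG also below.

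Among all tested genes, the highest Pearson correlations with SRGN over the 16 libraries included those of PEX2 (0.98), which acts in peroxisome assembly, and CDKN2AIP (0.98). ELANE was most like DPP7 (0.98), TOMM40 (0.98) and PIM3 (0.98), which encode a lysosomal dipeptidyl peptidase, a mitochondrial import channel and a kinase. MPO was most like PPP3CC (0.86), ITGB2-AS1 (0.85) and NANOS1 (0.85). These correlations run over libraries that share their treatment group and scaling, with Untreated replicate 4 and AM80 replicate 2 among them.

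Other genes of granule and lysosome biology were counted in the same fit, with no test of a list. Of all 14643 genes, 12.5%, 15.4%, 30.2% and 28% were called higher in ATRA, AM80, ATRA-LSDi-MB3 and AM80-LSDi-MB3 against Untreated. In the same order 12.1%, 13.4%, 30% and 26.6% were called lower, and every list below stands beside these shares. A list of 23 genes held other azurophil and eosinophil granule genes, cytotoxic granule genes such as GZMA, and ribonucleases such as ANG and RNASE6. Of these, 6 could be tested. In ATRA, AM80, ATRA-LSDi-MB3 and AM80-LSDi-MB3 against Untreated 2, 2, 4 and 4 were called higher and 0, 0, 1 and 0 lower. Those called higher were ANG and BPI with either retinoid alone, and ANG, BPI, GZMA and RNASE6 in both combinations. BPI was the only azurophil granule gene among them. BPI, which binds bacterial endotoxin, rose from 6.09 ± 3.01 normalized counts (SD, n = 4) to 17.4 ± 3.82 with ATRA and 19.3 ± 2.97 with AM80 (n = 3 each, log2 fold changes 1.44 and 1.60). These BPI counts are low. Its call in ATRA-LSDi-MB3 (0.98) held in 20 of 27 alternative settings, and was lost in DESeq2 and under quantile normalization, among others. ANG, the ribonuclease angiogenin, which shares upstream exons with RNASE4 so that reads could be split, rose from 12.5 ± 3.52 to 39.9 ± 0.575 with AM80, with log2 fold changes of 1.97, 1.64, 1.83 and 1.89 in the 4 treated groups. RNASE6, another ribonuclease A family gene, stood at 1361 ± 70.6 in Untreated cells and rose to 1981 ± 119 in ATRA-LSDi-MB3 (0.54).

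Of 24 specific, gelatinase and secretory granule genes, which are made later in granulocyte development, 14 were tested. In the same order of treatments 3, 5, 6 and 6 were called higher and 2, 2, 5 and 3 lower. FPR1, a formyl peptide receptor, rose from 17.1 ± 1.47 to 49.9 ± 9.79 in ATRA-LSDi-MB3 and 56.2 ± 2.97 in AM80-LSDi-MB3 (1.48 and 1.67). MMP8, neutrophil collagenase, rose from 12.5 ± 5.52 to 25.9 ± 2.83 and 30.1 ± 6.44 in the combinations (1.07 and 1.27). HP, haptoglobin, fell when inhibitors were added, from 23.1 ± 3.85 with ATRA to 8.52 ± 1.10 (-1.34) and from 25.4 ± 2.45 with AM80 to 8.92 ± 2.98 (-1.46).

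Protease activators and inhibitors were tested for 12 of 16 genes. Against Untreated 2, 4, 5 and 7 were higher and 4, 2, 2 and 1 lower. SERPINB1, an inhibitor of elastase, cathepsin G and proteinase 3, rose from 1616 ± 146 to 3160.3 ± 131 with ATRA and 3439.8 ± 80.2 with AM80 (0.97 and 1.09). SERPINB9, which inhibits granzyme B, rose in all 4 groups, by 0.85 to 1.49. SERPINB2, plasminogen activator inhibitor type 2, rose from 80.0 ± 9.29 to 536 ± 103 and 638 ± 43.0 with the combinations (2.72 and 2.99). SERPINB8, another serpin, stood at 3285 ± 187 in Untreated cells and was lower with ATRA (1941 ± 111) and AM80 (2011 ± 171, log2 -0.76 and -0.71) but higher in ATRA-LSDi-MB3 (4446 ± 143) and AM80-LSDi-MB3 (4305 ± 66.9, 0.44 and 0.39).

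Lysosomal hydrolases and membrane proteins, tested for 25 of 27 genes, were higher in 10, 12, 14 and 16 and lower in 2, 1, 3 and 1. FUCA1, a fucosidase, rose from 84.2 ± 13.3 to 389 ± 7.21 with ATRA and 858 ± 49.7 with AM80-LSDi-MB3 (2.21 and 3.35). CTSD, the aspartic protease cathepsin D, rose from 1363 ± 160.3 to 3996 ± 121 with ATRA (1.56). Granule sorting and transport genes, tested for 16 of 16, were higher in 2, 1, 7 and 6 and lower in 3, 3, 6 and 6. STX11, a syntaxin of granule exocytosis, rose from 93.1 ± 14.4 to 631 ± 12.8 with ATRA (2.76), and RAB27A, a small GTPase that docks granules, fell from 1349 ± 36.7 to 871 ± 72.2 (-0.63).

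Of 16 genes listed as regulators of granule genes, most of them transcription factors, 13 were tested. Of these 2, 2, 4 and 4 were higher and 3, 3, 6 and 6 lower than in Untreated cells. Binding of each to granule gene promoters was not tested. MYB fell from 7867 ± 403 to 5240.3 ± 228 with ATRA, 3273 ± 240.0 with ATRA-LSDi-MB3 and 2681 ± 216 with AM80-LSDi-MB3 (log2 -0.59, -1.27 and -1.55). CEBPB rose from 885 ± 220.0 to 2532 ± 199 with ATRA (1.54). CEBPA was lower in both combinations, at 4033 ± 482 and 4682 ± 341 compared with 6414 ± 1092 (-0.66 and -0.44). GFI1, a repressor known to act on ELANE, was lower with ATRA (-0.18), a call lost without ATRA replicate 1, and higher with ATRA-LSDi-MB3 (0.42). Whether these factors had a part in the levels of the granule genes was not tested.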

How the data were processed

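Libraries of OCI-AML3 cells were sequenced and the authors deposited 1 table of counts divided by DESeq2 size factors, a signal per gene in normalized counts. Per the labels, FastQC, cutadapt, STAR, featureCounts and DESeq2 were used. Tool versions, genome build, annotation and strandedness are not given in the sources used here. Whole reads were recovered from the deposited signal (100% of values whole within 1e-06). Depth was 11963898 to 33789718 reads, and no pair of replicates agreed within sampling noise (chi-square per degree of freedom 2.75 to 25.9 over 18 pairs).

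The test was limma 3.58.1 (R 4.3.3) on log2(normalized count + 1), with 1 coefficient per group over all 16 libraries, a mean-variance trend, a mean of 10 or more, and Benjamini-Hochberg adjustment over 14643 genes. Alternatives used edgeR 4.0.16 and DESeq2 1.42.0 on the recovered reads, no filter or a mean of 50, pseudocounts of 0.5 and 5, quantile and total-read scaling, only the groups compared, a replicate block, each library left out, a 1.5-fold limit and an adjusted p under 0.01. The fits were tested on simulated data. Lengths and positions came from GENCODE 29, and promoters from RefSeq, which held 5 of the 10 genes. Reads were taken as 51 bases long for the shared windows.

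The 10 genes and the lists of related genes and markers were chosen with earlier results of these data known. All 10 genes are named, and of each related list at most the 4 genes with the largest changes among those called, of which some are described. Of the similar genes 1, and of the marker lists 1, are not reported here.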

Additional observations from a re-analysis of the deposited data

Results flagged for a closer look

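In 3 of the 10 granule genes, Untreated replicate 4 stood far above the other 3 Untreated libraries, with a gap to the nearest of them that took 0.922 of the group's range for AZU1, 0.891 for RNASE3 and 0.945 for SRGN, above the 95% critical value of Dixon's test for 4 samples. Chance gives such a gap in about 1 of 20 groups, and the 10 genes were measured in the same library. Its normalized counts were 1988 for AZU1 (others 1573 to 1605) and 46955 for SRGN (others 37217 to 37750). Why that library stood apart was not tested. Groups of 3 libraries were not checked in this way.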

How the results depend on the processing

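Of 2511 values of the 10 genes under the alternatives, 2398 kept their side of the threshold, 60 lost a call and 51 gained one. Another 2 values turned and were called. LYZ in AM80-LSDi-MB3 against Untreated, 0.04 as reported, was -0.14 under quantile normalization and -0.15 on scaling to total reads. Among the 2398 values, 66 changed direction without a call in either setting. The number of the 10 genes called against Untreated was 4, 4, 7 and 4 for ATRA, AM80, ATRA-LSDi-MB3 and AM80-LSDi-MB3. With a limit of 1.5-fold it was 1, 0, 4 and 1 (9.45%, 10.2%, 29.1% and 26% of all genes). Without the filter on low counts it was 2 for AM80, 4 for ATRA-LSDi-MB3 and 2 for AM80-LSDi-MB3, beside 4.58%, 12.2% and 10.9% of 62700 genes. The calls lost without the filter were CTSG (ATRA, AM80 and ATRA-LSDi-MB3), RNASE3 (AM80), MPO (both combinations), PRTN3 (ATRA-LSDi-MB3) and AZU1 (AM80-LSDi-MB3) against Untreated, and ELANE and RNASE2 in ATRA-LSDi-MB3 against ATRA. For AM80-LSDi-MB3 it was also 8 under quantile normalization, 9 on scaling to total reads and 2 at an adjusted p under 0.01, where 53.7%, 59.2% and 43.4% of all genes were called. ATRA-LSDi-MB3 against ATRA went from 5 to 3 without the filter (8.38% of all genes) and 2 with the limit (19.5%), and AM80-LSDi-MB3 against AM80 from 2 to 0 with the limit (15.7%). AM80 against ATRA went from 0 to 1 in DESeq2 (0.902% of 38023 genes with any read). AM80-LSDi-MB3 against ATRA-LSDi-MB3 went from 0 to 4 when only the groups compared were fitted (13.5% of 14643 genes). The limit and the stricter p leave fewer calls by construction, and the cause of the other moves was not tested.

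Leaving out 1 library gave 3 to 5, 3 to 6, 6 to 7 and 2 to 4 calls against Untreated, the lowest of the last without AM80-LSDi-MB3 replicate 2. It gave 3 to 6 for ATRA-LSDi-MB3 against ATRA, lowest without ATRA-LSDi-MB3 replicate 3, and 2 to 3 for AM80-LSDi-MB3 against AM80. For AM80 against ATRA it gave 0 to 1 (1 without Untreated replicate 4 or AM80 replicate 3), for AM80-LSDi-MB3 against ATRA-LSDi-MB3 0 to 2 (2 without Untreated replicate 4), and 0 throughout for the interaction. Samples with the same replicate number did not deviate together (r from -0.11 to 0.19 over 30 pairs). Of 16 libraries, 2 were closest to their own number, and Untreated replicate 4 had no library of its number to match. The numbers gave no sign of pairing, but deviations from means of 3 or 4 libraries cannot exclude it. With the replicate block, 1 gene was called in AM80 against ATRA (SRGN) and 2 in AM80-LSDi-MB3 against ATRA-LSDi-MB3 (AZU1 and CTSG), beside 2.75% and 4.71% of all genes. The block ended the calls of CTSG in AM80 and of MPO in AM80-LSDi-MB3 against Untreated, and added those of SRGN in ATRA and of CST7 in both combinations against their retinoid. No other group has a replicate 4, so the block also takes away the weight of Untreated replicate 4, and its values against Untreated were those without that library (-0.19 for CTSG in AM80 and 0.30 for SRGN in ATRA). MPO, at 19 to 80 reads per library, had the least depth of the 10 genes.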
